A study of Mus musculus with 4 samples.

Results

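The 39 genes described here encode the Toll-like receptors and the parts of the NF-κB pathway that follow them: 10 receptors, 9 adaptors, kinases and TRAF proteins, the 3 subunits of the IKK complex, the 5 NF-κB subunits, 7 inhibitors, and 5 NOD and inflammasome genes. They were taken by gene name from a prepared list, chosen with earlier results of these data known. All 39 were found among the 39179 genes of the deposited table. Each was measured in total RNA labelled as that of primary smooth muscle cells of the mouse aorta. There were 2 libraries of Sm-Yap/Taz-KO mice (KO) and 2 of wild-type mice (WT). The KO mice are labelled as lacking YAP and TAZ, the co-activators encoded by Yap1 and Wwtr1, in smooth muscle, and both groups were taken 18 days after tamoxifen, the drug that starts the deletion. The Cre line, the age of the mice and whether the libraries of a group came from separate animals are not stated in the labels, and a p-value here reflects no more than the spread among these 4 libraries, possibly technical in part or whole.

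Toll-like receptors are membrane proteins that bind molecules shared by many microbes, at the cell surface or, for receptors of nucleic acids, inside endosomes. Through the adaptor proteins MyD88 and TRIF they activate kinases of the IRAK family, the ubiquitin ligases of the TRAF family and the IKK complex, which marks IκB proteins for destruction and so frees NF-κB to enter the nucleus. NF-κB switches on cytokine and adhesion genes and also its own inhibitors, which close the loop. Macrophages carry most of these receptors, and vascular smooth muscle cells are known to carry some of them, TLR4 among them.

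The deposited values are read counts per gene, normalized by the authors and rounded to whole numbers, called normalized counts below. They summed to 13861333 and 13279332 in the KO and to 14235444 and 14519178 in the WT libraries, and the spacing of the rounded values put the reads on genes at about 12300000 and 11800000 in the KO and 15600000 and 16800000 in the WT libraries. Yap1 stood at 947 and 962 in the KO and 1966 and 1877 in the WT libraries (limma adjusted p = 0.00802), and Wwtr1 at 2848 and 2466 in KO against 3423 and 4016 in WT (limma adjusted p = 0.0553). Mean counts in the KO libraries were thus 0.497 of the WT mean for Yap1 and 0.714 for Wwtr1, and the lower level of Wwtr1 did not pass the test. Reads of both genes were still present, but counts per gene do not show whether the transcripts were intact. The label of the cells was checked against markers. The summed counts of 10 smooth muscle markers were 198456 and 151390 in the KO and 485418 and 455808 in the WT libraries. At a limma adjusted p under 0.05, 8 of the 10 fell (80%, against 6.70% of all tested genes). Markers of other cells were present in all 4 libraries, so the markers do not bear out a label of smooth muscle cells alone. In the WT libraries the endothelial gene Vwf stood at 904 and 2019 counts and the adipocyte gene Plin1 at 318 and 875. The summed counts of 20 macrophage markers were 19411 and 24068 in the KO and 5561 and 7914 in the WT libraries. Of the 20, 18 rose (90%, against 9.58% of all tested genes) and 1, the receptor kinase gene Mertk, fell (5%, against 6.70%). In such bulk samples more cells of a type and more RNA per cell cannot be told apart.

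Sequences before the gene starts are shown for 5 members, to set what rose beside what its promoter holds. They are the 250 bases before a RefSeq start (GRCm38.p6), from 5′ to 3′ on the gene's strand. Tlr13, Tlr1, Nfkbie and Tnip3 rose in the KO libraries, as described further on, and Nfkbia, whose groups overlapped, is the best-known NF-κB target among the inhibitors. Capitals mark matches to GGGA, 4 bases of any kind and CC, the shared letters of many NF-κB sites, to GAGGAAGT, a site of the myeloid transcription factor PU.1, and to GGAATG, the core of TEAD sites, the factors through which YAP and TAZ bind DNA. Both strands were searched.
Tlr13 (chrX:106143025-106143274, plus strand): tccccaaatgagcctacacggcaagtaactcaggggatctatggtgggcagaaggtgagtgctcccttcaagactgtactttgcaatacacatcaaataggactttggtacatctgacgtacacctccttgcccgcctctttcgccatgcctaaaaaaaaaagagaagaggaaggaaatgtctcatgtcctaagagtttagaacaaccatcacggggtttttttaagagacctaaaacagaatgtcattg
Tlr1 (chr5:64933559-64933808, minus strand): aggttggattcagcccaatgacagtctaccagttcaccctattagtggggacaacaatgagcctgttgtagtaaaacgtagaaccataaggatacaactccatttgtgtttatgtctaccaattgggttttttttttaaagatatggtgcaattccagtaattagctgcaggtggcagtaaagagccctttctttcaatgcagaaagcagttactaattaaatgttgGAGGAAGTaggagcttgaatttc
Nfkbie (chr17:45555450-45555699, plus strand): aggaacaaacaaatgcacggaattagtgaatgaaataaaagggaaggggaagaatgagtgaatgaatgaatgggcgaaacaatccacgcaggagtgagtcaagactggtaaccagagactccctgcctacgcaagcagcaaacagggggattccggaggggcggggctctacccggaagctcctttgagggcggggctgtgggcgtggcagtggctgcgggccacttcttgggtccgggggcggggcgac
Tnip3 (chr6:65590148-65590397, plus strand): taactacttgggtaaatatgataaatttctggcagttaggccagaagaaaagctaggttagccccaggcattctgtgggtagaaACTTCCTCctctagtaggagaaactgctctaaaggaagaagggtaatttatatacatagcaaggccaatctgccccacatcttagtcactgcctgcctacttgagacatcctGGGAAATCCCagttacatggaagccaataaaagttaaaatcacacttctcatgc
Nfkbia (chr12:55492648-55492897, minus strand): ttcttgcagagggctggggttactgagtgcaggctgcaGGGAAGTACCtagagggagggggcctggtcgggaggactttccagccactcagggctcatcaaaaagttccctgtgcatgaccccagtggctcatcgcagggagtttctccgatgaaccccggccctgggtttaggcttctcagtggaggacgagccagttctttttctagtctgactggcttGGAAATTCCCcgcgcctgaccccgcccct
The windows of Tlr13 and Nfkbie hold no match to the letters of any of the 3 motifs. Other forms of an NF-κB site were not searched, such as gggggattcc in the Nfkbie window, with G in place of the A. The match in Tlr1 is to the PU.1 letters, 23 bases before this start. RefSeq gives Tlr1 another start, whose window (chr5:64932700-64932949) holds no match to any of the 3. Tnip3 holds a PU.1 match 166 bases and an NF-κB match 54 bases before this RefSeq start. In GENCODE M21 Tnip3 begins upstream, at 65525313, so this window lies within the annotated gene. Nfkbia holds NF-κB matches 212 and 29 bases before its start. No TEAD match lies in these 5 windows.

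RefSeq windows of 300 bases, which add the first 50 bases of the gene, were found for 33 of the 39 members; Ikbkb, Nfkb1, Nfkbiz, Relb, Tlr4 and Tlr7 had none. The NF-κB letters stood in a window of 15 of these 33 members, or 45.5%, beside 22.9% of all 27018 genes with a window. They stood in 3 of the 10 members that rose and have a window, Irak1, Irak3 and Tnip3. The PU.1 letters stood in 6 members, or 18.2%, beside 3.69% of all genes, and the TEAD letters in 3 members, or 9.09%, beside 16.6%. Among the same 10 members that rose, 3 hold the PU.1 letters, Tlr1, Tlr9 and Tnip3, and 1, Irak3, the TEAD letters. In 1 window, of Nfkb2, an NF-κB and a TEAD match share bases. A match is a run of letters and was not tested as a binding site, and no test of these shares was made.

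Each log2 fold change below was taken after adding 1 to the values and is given ± limma's SE. The comparison of KO with WT asks which transcripts differ once YAP and TAZ are deleted in smooth muscle. Of the 39 members, 11 rose and 1 fell at a limma adjusted p under 0.05. The members that rose were the receptor genes Tlr1, Tlr7, Tlr8, Tlr9 and Tlr13, Myd88, Irak1, Irak3, Nfkbie, Tnip3 and Nod1, and the member that fell was Irak2. The other 27 did not pass, 9 of them with an adjusted p between 0.05 and 0.10. The 11 are 28.2% of the members, against 9.58% of all 15058 tested genes called higher, and the 1 is 2.56%, against 6.70% called lower. Among the 11, Tlr1 and Tnip3 had a WT mean below 10 and passed the filter on low counts, a mean of at least 10, through their KO values. With the list also chosen as stated above, these shares are descriptions alone. The median log2 fold change was 0.67 over the members and -0.02 over all tested genes. Both KO libraries lay above both WT libraries for 29 members (74.4%, against 30.7% of all tested genes) and below them for 2 (5.13%, against 32.1%).

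The calls depended on the test. When genes of any level were kept, limma called none of the 39 (23 had an unadjusted p under 0.05). The same held when the intensity trend was left out (21), and with 1 library left out it called none without KO replicate 1 (19), KO replicate 2 (14) or WT replicate 1 (13), and 4 higher without WT replicate 2. With the libraries rescaled to the same total it called 17 higher and 0 lower.

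**Figure D1:**
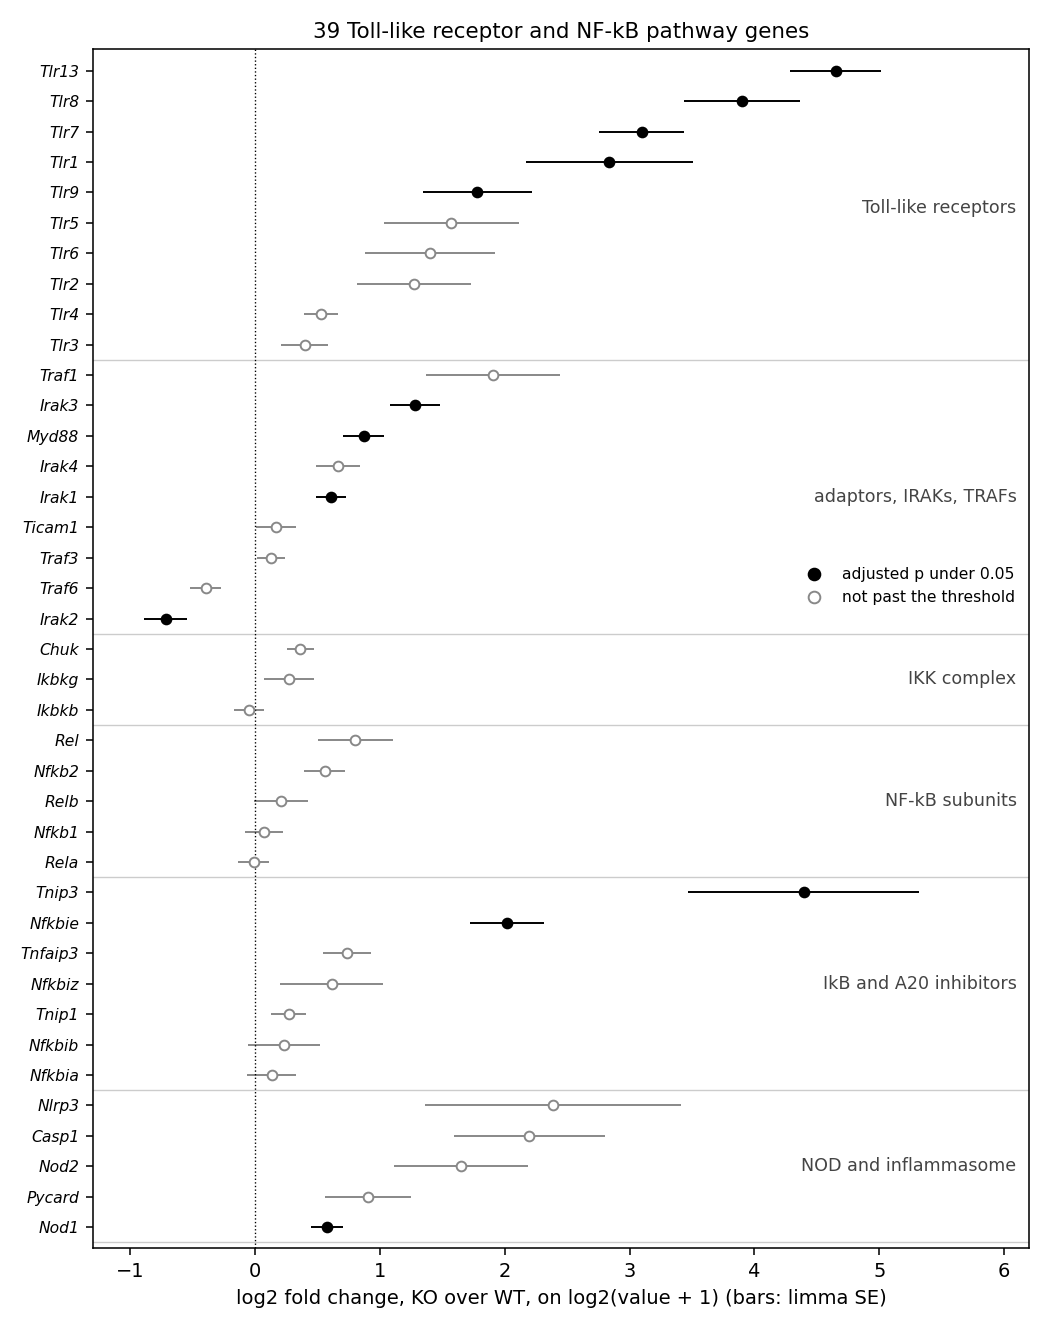
Log2 fold change of KO over WT on the log2(value + 1) scale for each of the 39 genes, grouped by role, with limma's SE as bars; filled points passed an adjusted p of 0.05. Receptor genes spread from 0.40 for Tlr3 to 4.65 for Tlr13, while the IKK complex and NF-κB subunits stay between -0.05 and 0.80.

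Tlr13, Tlr8 and Tlr7, whose products sit in endosomes, had the largest log2 fold changes among the receptors. Tlr13, which in mice recognises bacterial ribosomal RNA (chromosome X, 106143204 to 106160493, GRCm38), had 241 and 328 normalized counts in the KO libraries, against 8 and 13 in the WT libraries. The groups lay 27.1-fold apart, a log2 fold change of 4.65 ± 0.37 (limma adjusted p = 0.00534). Tlr8, which encodes a close relative of TLR7, had 328 and 524 counts in the KO libraries, against 17 and 42 in the WT libraries (14.4-fold, log2 fold change 3.90 ± 0.47, limma adjusted p = 0.00964). Tlr7, a sensor of single-stranded RNA and the neighbour of Tlr8 on chromosome X, 40599 bases away, had 462 and 645 in KO against 46 and 86 in WT (8.39-fold, log2 fold change 3.10 ± 0.34, limma adjusted p = 0.00893). For these 3 genes every KO library held more than 5 times the highest WT value. They were also the receptor genes still called without WT replicate 2.

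Tlr9, the receptor of unmethylated CpG DNA, was lower in level and had 42 and 69 counts in the KO libraries, against 16 and 14 in the WT libraries. Its log2 fold change was 1.78 ± 0.44 (limma adjusted p = 0.0448), and it missed the threshold after quantile normalization. Tlr3, which binds the paired RNA strands of viruses, stood at 266 and 228 in KO against 173 and 202 in WT. Its groups did not overlap, yet its log2 fold change of 0.40 (95% interval -0.06 to 0.85) did not pass.

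Among the receptors of the cell surface only Tlr1 passed the test. Tlr1, which pairs with TLR2 to bind bacterial lipopeptides, had 27 and 72 counts in the KO libraries, against 4 and 7 in the WT libraries (log2 fold change 2.84 ± 0.67, limma adjusted p = 0.0399). Its KO mean was 9-fold the WT mean, a ratio above that of Tlr7, and without KO replicate 1 its log2 fold change of 3.53 also exceeded the 3.34 of Tlr7. With a WT mean below 10, Tlr1 and Tnip3 passed the filter on low counts through their KO values, so a difference was partly built into their being tested. Tlr6, the neighbour of Tlr1 18467 bases away on chromosome 5 and the other partner of TLR2, had 47 and 31 in KO against 10 and 19 in WT (limma adjusted p = 0.124). These paralogs share sequence: 15.3% of the 50-base windows of the Tlr1 transcript occur also in Tlr6, so some of their reads may have been split or dropped.

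Tlr2 had 76 and 179 counts in the KO libraries, against 57 and 40 in the WT libraries (limma adjusted p = 0.117). Tlr5, the flagellin receptor, had 97 and 118 in KO against 20 and 62 in WT (limma adjusted p = 0.104). In both the groups did not overlap, but the libraries of 1 group differed more than 2-fold. Tlr4, the receptor of bacterial lipopolysaccharide, had 1469 and 1209 counts in the KO libraries, against 878 and 969 in the WT libraries. Its log2 fold change of 0.53 ± 0.14 stood just outside the threshold (limma adjusted p = 0.0504). It passed in 7 of 14 other settings, with adjusted p from 0.0231 to 0.318.

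**Figure D2:**
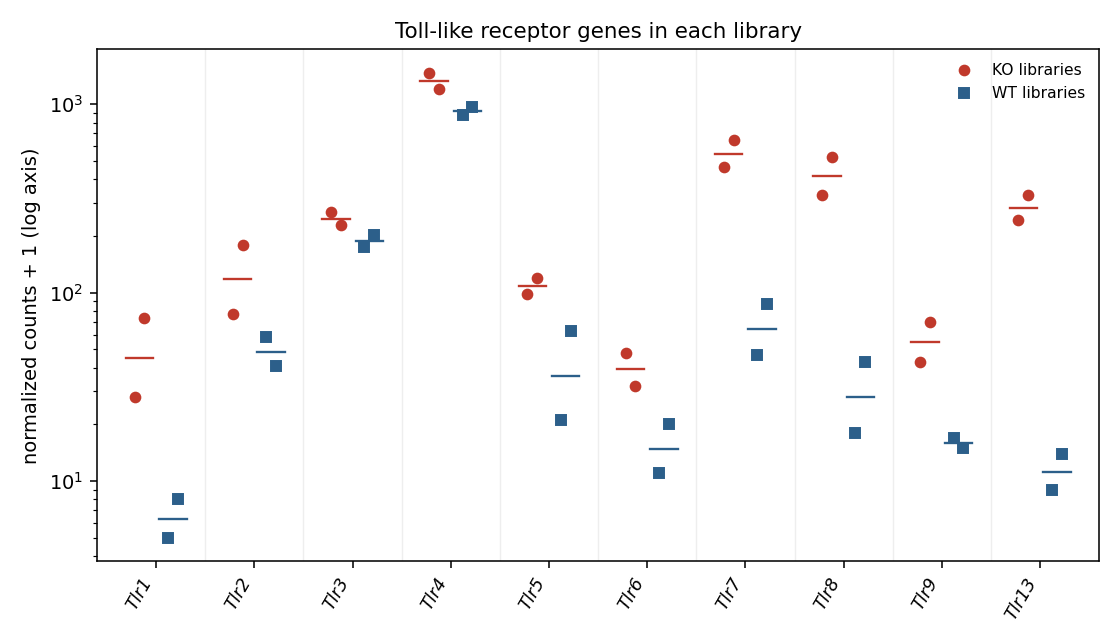
Normalized counts plus 1, on a log axis, of the 10 Toll-like receptor genes in each KO (circles) and WT (squares) library, with the geometric mean of each group as a line. Both KO libraries lie above both WT libraries for each gene, narrowly for Tlr3 and by the widest gap for Tlr13.

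Levels can be compared roughly between genes once divided by exon length, here the union of exons in GENCODE M21. That union spans all annotated transcripts of a gene and can exceed the length of any of them. On this scale Tlr4 was the most abundant receptor gene in every library, at 264 and 218 normalized counts per kilobase in the KO and 158 and 174 in the WT libraries. It made up 40.4% and 28.1% of the summed level of the 10 receptor genes in the KO libraries, against 65.7% and 60.9% in the WT libraries. Tlr7 ranked next in the KO libraries at 113 and 158 per kilobase, against 11.3 and 21.1 in the WT libraries. In the WT libraries the next was Tlr3, at 33.2 and 38.8 per kilobase.

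The 5 endosomal receptor genes, Tlr3, Tlr7, Tlr8, Tlr9 and Tlr13, together held 49.5% and 57.3% of the summed level per length in the KO libraries, against 23.1% and 27.4% in the WT libraries. Their summed level was 324 and 444 per kilobase in the KO and 55.7 and 78.6 in the WT libraries. The 5 surface receptor genes summed to 331 and 331 per kilobase in the KO and 185 and 208 in the WT libraries. In both sums the groups did not overlap.

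**Figure D3:**
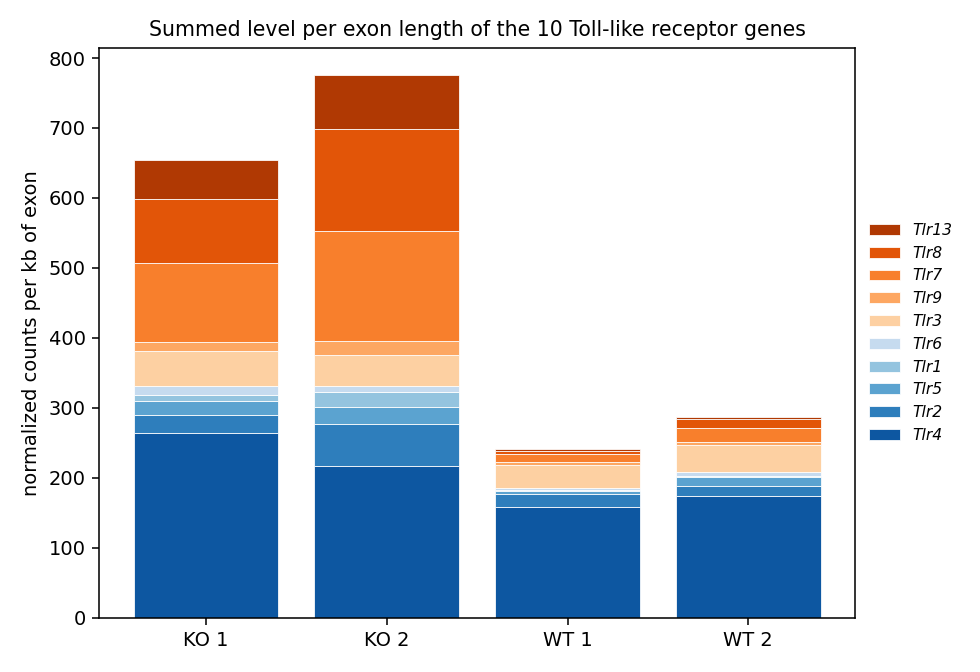
Stacked normalized counts per kilobase of exon for the 10 Toll-like receptor genes in each library, surface receptors in blue below endosomal ones in orange. The endosomal part reaches 324 and 444 in the KO libraries and 55.7 and 78.6 in the WT libraries.

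Macrophage markers moved with the receptor genes. Among the 18 of 20 that rose, the surface marker gene of macrophages Adgre1 stood at 505 and 764 counts in the KO and 56 and 126 in the WT libraries, and the chemokine receptor gene of monocytes and macrophages Cx3cr1 at 276 and 592 in KO against 24 and 42 in WT. The macrophage list had a median log2 fold change of 2.87. WT replicate 2 lay above WT replicate 1 for 8 of the 10 receptor genes and for 26 of all 39 members. The summed counts of the macrophage, endothelial, fibroblast and adipocyte markers were also higher in WT replicate 2. KO replicate 2 lay above KO replicate 1 for 7 of the 10 receptor genes and for 29 of all 39 members. There the summed counts of the macrophage, neutrophil and T, B and NK cell markers were also higher. Those of the endothelial, fibroblast and adipocyte markers were lower in KO replicate 2. Of 8 neutrophil markers 4 were tested and 3 rose; the 8 summed to 113 and 627 in the KO and 6 and 9 in the WT libraries, with Ly6g, Mpo and Elane at 0 in all 4. The 3 that rose had a WT mean under 10 and were tested through their KO values alone, so nothing is read from that count. Over all tested genes 9.58% were called higher and 6.70% lower. Among 12 endothelial markers 5 rose (41.7%, summed counts 13262 and 11540 in the KO, 5012 and 7459 in the WT libraries). Among 12 fibroblast markers 2 rose (16.7%, 110629 and 82369 in KO against 41957 and 71094 in WT). Among 10 adipocyte markers 7 rose (70%) and 1 fell (10%), with 20603 and 18345 in KO against 9683 and 10919 in WT. The log2 fold change was positive for all 12 endothelial, all 12 fibroblast and 9 of the 10 adipocyte markers. Of 11 T, B and NK cell markers 2 passed the filter on low counts and neither passed the test (82 and 111 in KO against 21 and 32 in WT). The part of these other cells in the rise of the receptor genes was not tested.

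Between receptor and kinase complex, the members moved in both directions. Myd88, the adaptor shared by nearly all Toll-like receptors (chromosome 9, 119335934 to 119341411), had 339 and 305 counts in the KO libraries, against 171 and 180 in the WT libraries. Its log2 fold change was 0.87 ± 0.16 (limma adjusted p = 0.0224). A gene on the opposite strand, Acaa1a, overlaps 11.3% of its exon length, and without the strand setting of the authors' counting their reads cannot be told apart. Ticam1, which encodes the adaptor TRIF of TLR3 and TLR4, stood at 272 and 245 in KO against 233 and 226 in WT and did not pass (log2 fold change 0.17, 95% interval -0.22 to 0.56).

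The IRAK kinases, which MyD88 gathers at the receptor, split. Irak1 had 1309 and 1435 counts in the KO libraries, against 840 and 961 in the WT libraries (log2 fold change 0.61 ± 0.12, limma adjusted p = 0.0264). Irak3, which encodes IRAK-M, a member without kinase activity that restrains the pathway, had 359 and 301 in KO against 120 and 151 in WT (2.44-fold, log2 fold change 1.28 ± 0.20, limma adjusted p = 0.0152). Irak2 went the other way, with 249 and 291 counts in the KO libraries, against 492 and 399 in the WT libraries. Its log2 fold change of -0.72 ± 0.17 (limma adjusted p = 0.0432) missed the threshold after rescaling to the same total (limma adjusted p = 0.0657). Irak4, the kinase that starts the chain, stood at 356 and 420 in KO against 222 and 267 in WT, just outside the threshold (limma adjusted p = 0.0533).

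None of the 3 TRAF genes passed. Traf6, the ubiquitin ligase used by the MyD88 branch, had 533 and 518 counts in the KO libraries, against 727 and 657 in the WT libraries (log2 fold change -0.39, limma adjusted p = 0.0824). Traf3, which serves the TRIF branch, had 869 and 912 in KO against 817 and 813 in WT. Traf1, an NF-κB target that encodes a TRAF protein without ligase activity, had 36 and 74 in KO against 10 and 17 in WT (log2 fold change 1.90 ± 0.54, limma adjusted p = 0.0634). Irak2 and Traf6 were the 2 members with both KO libraries below both WT libraries.

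The IKK complex and the NF-κB subunits, where the signals of many receptors meet, did not pass in any of their 8 genes. Of all tested genes 16.3% were called in either direction, so with 8 genes nothing is read from that count. Rela, the main activating subunit, had 758 and 760 counts in the KO libraries, against 819 and 714 in the WT libraries, and the 95% interval of its log2 fold change ran from -0.31 to 0.29. Nfkb1, which encodes the precursor of the usual partner of RelA, had 857 and 1072 in KO against 853 and 974 in WT (95% interval -0.30 to 0.44). The catalytic IKKβ gene Ikbkb had 916 and 1045 in KO against 1043 and 979 in WT (95% interval -0.34 to 0.25). In these 3 genes the groups overlapped, and a difference of 2-fold lay outside each interval.

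Ikbkg, on the X chromosome, encodes the regulatory subunit NEMO and had 983 and 658 counts in the KO libraries, against 638 and 696 in the WT libraries, groups that overlapped. Chuk, which encodes IKKα, had 1138 and 1160 in KO against 865 and 922 in WT, with a log2 fold change of 0.36 ± 0.11 (limma adjusted p = 0.0710). Relb overlapped between the groups at 152 and 188 in KO against 159 and 135 in WT. Nfkb2, the subunit processed in the alternative pathway, had 660 and 828 in KO against 465 and 542 in WT (log2 fold change 0.56 ± 0.16, limma adjusted p = 0.0686), and AC114539.1 on the opposite strand overlaps 11.6% of its exon length. Rel, the subunit best known from blood cells, had 150 and 169 in KO against 70 and 118 in WT (log2 fold change 0.80, limma adjusted p = 0.129). Per exon length Rela was the most abundant subunit in all 4 libraries, at 47.4% and 42.1% of the summed subunit level in the KO and 54.5% and 48.2% in the WT libraries. These shares depend on the length used. The union of exons was 12061 bases for Nfkb1, whose longest protein-coding transcript has 4117, and 3072 for Rela, where that transcript has 2716.

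Of the 7 inhibitors of NF-κB, most of them NF-κB targets themselves, 2 rose (28.6%, against 9.58% of all tested genes) and 5 did not pass. Tnip3, 1 of the 2, passed the filter on low counts through its KO values, so nothing is read from this small count. The log2 fold change was above 0 for all 7, and for 7215 of all 15058 tested genes. Nfkbie, which encodes IκBε (chromosome 17, 45555703 to 45563169), had 202 and 306 counts in the KO libraries, against 52 and 71 in the WT libraries. The difference was 4.13-fold (log2 fold change 2.01 ± 0.30, limma adjusted p = 0.0136). Its relatives did not pass: Nfkbia, which encodes IκBα, had 351 and 499 in KO against 401 and 364 in WT (log2 fold change 0.13, 95% interval -0.36 to 0.62), and Nfkbib, which encodes IκBβ, 65 and 76 in KO against 54 and 66 in WT. The groups overlapped in both. Ccer2, on the opposite strand, overlaps 14.5% of the exon length of Nfkbib. Differences between Nfkbie and these relatives were not themselves tested.

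Nfkbiz, which encodes a nuclear IκB protein that helps switch on secondary response genes, stood at 381 and 936 counts in the KO libraries, against 448 and 340 in the WT libraries. The 2 KO libraries differed by 2.46-fold, and the first lay between the WT values. Tnfaip3, which encodes the ubiquitin-editing inhibitor of the pathway, had 313 and 413 in KO against 207 and 224 in WT, with a log2 fold change of 0.74 ± 0.19 just outside the threshold (limma adjusted p = 0.0502). Of its binding partners, Tnip1 had 894 and 752 in KO against 642 and 722 in WT (limma adjusted p = 0.248). Tnip3 had 16 and 25 counts in the KO libraries and 0 in both WT libraries (limma adjusted p = 0.0301). With 3 counts over the WT group taken as the floor, the summed KO count was at least 13.7-fold higher, a bound for counting error alone.

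**Figure D4:**
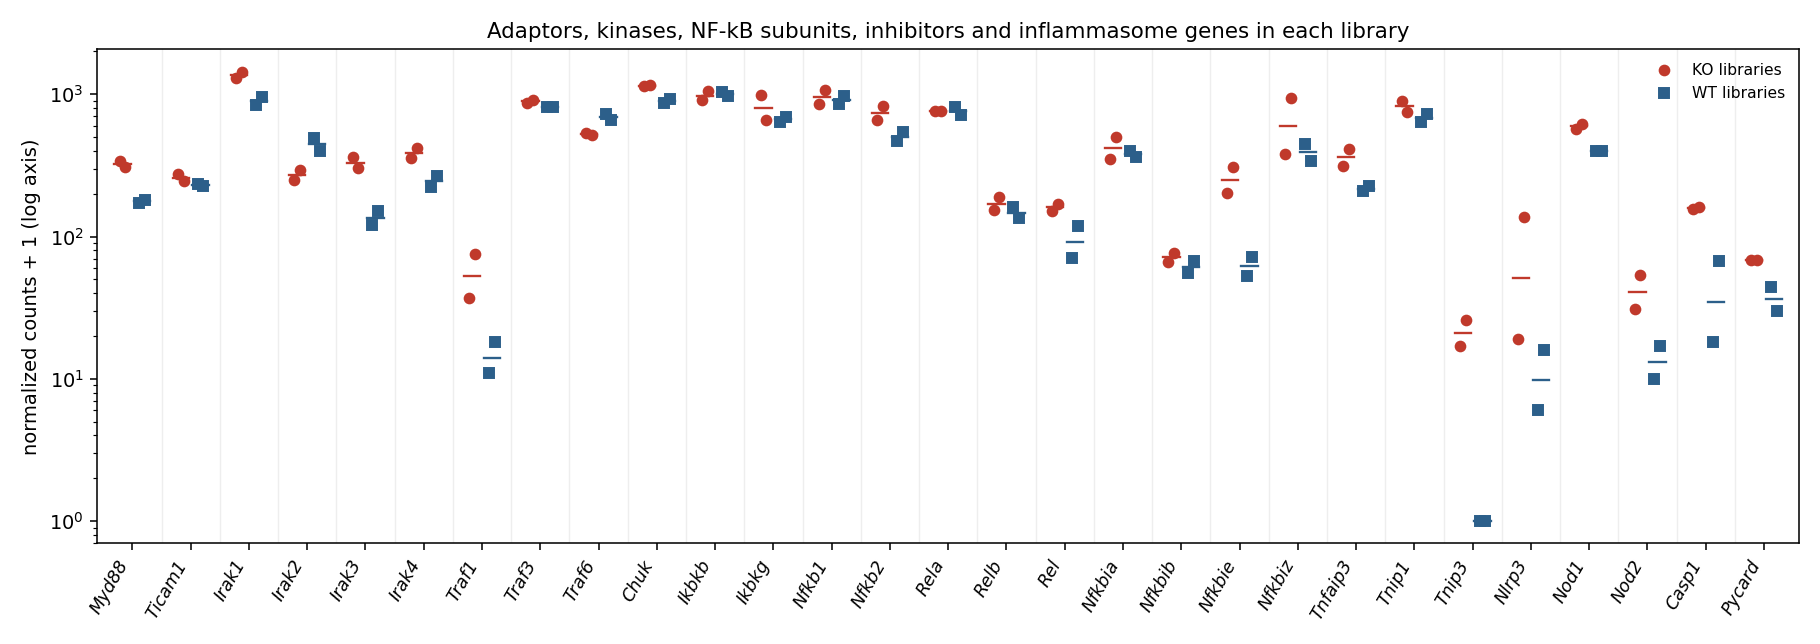
Normalized counts plus 1, on a log axis, of the 29 members other than receptors in each KO (circles) and WT (squares) library, with group geometric means as lines. Nlrp3 shows the widest gap between the 2 KO libraries, 18 and 137 counts, and Tnip3 is at 0 in both WT libraries.

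The cytosolic sensors and inflammasome genes lay higher in both KO libraries than in both WT libraries for each of the 5, as did 30.7% of all tested genes. Of the 5, 1 passed (20%, against 9.58% of all tested genes called higher), a count too small to read. Nod1, a sensor of bacterial peptidoglycan (chromosome 6, 54923949 to 54972612), had 569 and 620 counts in the KO libraries, against 395 and 401 in the WT libraries. Its log2 fold change was 0.58 ± 0.13 (limma adjusted p = 0.0339). Nod2, its relative known from myeloid cells, had 30 and 53 in KO against 9 and 16 in WT (log2 fold change 1.65, limma adjusted p = 0.0910). Casp1, the protease that matures interleukin-1β, had 156 and 160 in KO against 17 and 66 in WT, and the gap between the WT libraries exceeded that between the KO libraries. The log2 fold change, 2.19 ± 0.61, missed the threshold (limma adjusted p = 0.0599), and its size moved with the WT library left out. It was 3.14 without WT replicate 2, where it passed (limma adjusted p = 0.0351), and 1.25 without WT replicate 1 (limma adjusted p = 0.149). Without KO replicate 1 or KO replicate 2 it did not pass (limma adjusted p = 0.298 and 0.320).

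Nlrp3, the sensor of the best-studied inflammasome, had 18 and 137 counts in the KO libraries, against 5 and 15 in the WT libraries. The KO libraries differed 7.61-fold, and the log2 fold change of 2.39 ± 1.02 did not pass (limma adjusted p = 0.170). Pycard, the adaptor that joins sensor and caspase, had 67 and 67 in KO against 43 and 29 in WT (limma adjusted p = 0.131), with an opposite-strand gene over 12.8% of its exon length.

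Other genes of the pathway, from 5 lists that hold none of the 39, numbered 93, of which 81 were tested; 33 rose (40.7%, against 9.58% of all tested genes) and 1 fell (1.23%, against 6.70%). Of the 33, 13 had a WT mean under 10 and passed the filter on low counts through their KO values, so that a difference was partly built in and the counts and medians of the lists are descriptions alone. Of 15 tested co-receptors, chaperones and adaptors, 10 rose, 3 of them with a WT mean under 10, and 0 fell, and the list had a median log2 fold change of 1.80. Unc93b1, the chaperone that carries endosomal receptors out of the endoplasmic reticulum, had 554 and 751 counts in the KO libraries, against 153 and 226 in the WT libraries (log2 fold change 1.79 ± 0.25). The lipopolysaccharide co-receptor gene Cd14 had 156 and 277 in KO against 27 and 41 in WT (log2 fold change 2.61 ± 0.38). Lbp, the serum protein that hands lipopolysaccharide to CD14, had 1836 and 1288 in KO against 210 and 436 in WT, and Pik3ap1, a signalling adaptor of blood cells, 277 and 534 in KO against 21 and 73 in WT. Cnpy3, Tollip and Tirap, which encode a chaperone and adaptors of the same receptors, did not pass; their values on the log2 scale were -0.05, -0.01 and 0.07.

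Of 24 further kinases, ubiquitin enzymes and transcription factors, 3 rose and none fell, 12.5% against 9.58% of all tested genes called higher, and the median log2 fold change was 0.00. The risers were Irf5, a transcription factor downstream of MyD88 (117 and 237 counts in the KO, 39 and 42 in the WT libraries), Birc3, a ubiquitin ligase and NF-κB target (599 and 681 in KO against 395 and 420 in WT), and Map3k14, the kinase of the alternative pathway (157 and 200 in KO against 90 and 91 in WT). Of 12 further regulators, 2 rose (16.7%) and 1 fell (8.33%), shares near those of all tested genes. Bcl3, a nuclear IκB protein, had 63 and 199 in KO against 12 and 11 in WT, and Nlrc3, a sensor that restrains Toll-like receptor signals, 97 and 89 in KO against 39 and 41 in WT. Cyld, a deubiquitinase that restrains NF-κB, was the gene that fell, with 825 and 679 counts in the KO libraries, against 1365 and 1250 in the WT libraries (log2 fold change -0.80 ± 0.14, limma adjusted p = 0.0181).

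Of 12 inflammasome partners, 6 rose (50%, against 9.58% of all tested genes) and none fell, but 3 of the 6, Aim2, Mefv and Il1b, had a WT mean under 10. The DNA sensor gene Aim2 had 58 and 93 counts in the KO libraries, against 3 and 4 in the WT libraries, and Gsdmd, which encodes the pore-forming gasdermin D, 226 and 207 in KO against 53 and 106 in WT. Il1b had 46 and 363 in KO against 1 and 6 in WT, and Mefv, the pyrin gene, 35 and 158 in KO against 0 and 3 in WT, so most of both KO sums came from KO replicate 2. Of 26 textbook NF-κB targets, 18 were tested, 12 rose (66.7%, against 9.58% of all tested genes) and 0 fell. But 7 of the 12 had a WT mean under 10 and were tested through their KO values alone. The 26 summed to 6794 and 15794 counts in the KO and 3337 and 3660 in the WT libraries, so most of the KO sum came from KO replicate 2. The adhesion gene Vcam1 had 1845 and 4968 in KO against 326 and 479 in WT, and Tnfrsf1b, a receptor of tumour necrosis factor, 327 and 634 in KO against 91 and 107 in WT. Sod2 and Csf1, on the same list, did not pass at 879 and 824 in KO against 782 and 773 in WT and at 1236 and 1393 in KO against 1449 and 1329 in WT. The 12 genes of the 5 lists that were not tested stayed below a mean of 10, Tnf among them at 2 and 26 in KO against 0 and 1 in WT. The rise of 18 of 20 macrophage markers stands beside these lists as well, and its part was not tested. Without WT replicate 2 limma called 12 of these pathway genes higher and 0 lower, and without any other single library 0.

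**Figure D5:**
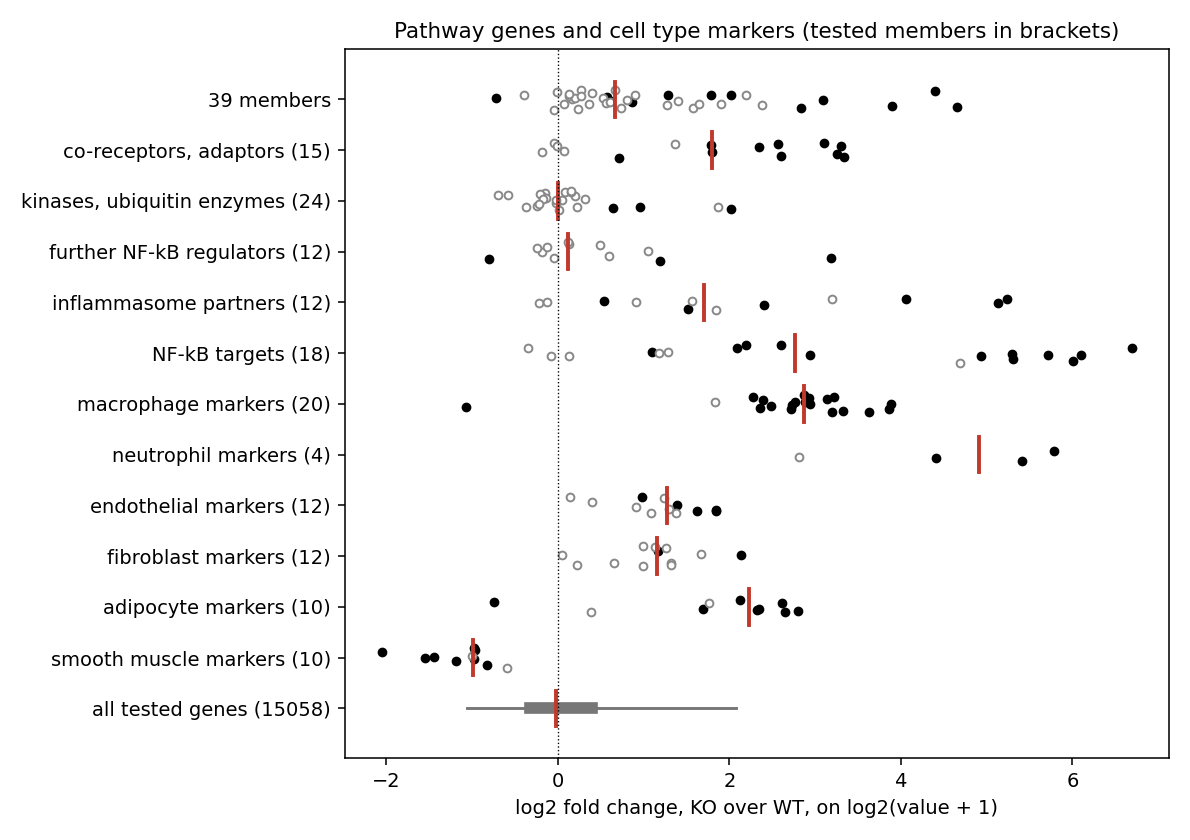
Log2 fold changes of KO over WT for the 39 members, 5 further pathway lists and 6 lists of cell type markers; filled points passed an adjusted p of 0.05, red lines are medians, and the grey bar for all tested genes spans the middle 50% and its line the 5th to 95th percentile (-1.06 to 2.08). The members' median is 0.67, that of macrophage markers 2.87 and that of all tested genes -0.02.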

How the data were processed

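Libraries were stranded and made from RNA after ribosomal depletion, per the labels' protocols. Per the submitters' processing notes, the tools were FastQC, STAR (2.5.2b), Subread with featureCounts (1.5.1) and DESeq2 (1.14.1), on mm10/GRCm38; no role is stated for any. The authors' annotation, strand setting and filters were not given in the sources used here. The deposited table holds, for each of the 4 libraries, a score: a normalized count per gene that the authors rounded to whole numbers. Some whole numbers never occur among the KO values, in a regular pattern, so these are not raw counts, and no count model was used.

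Values were transformed to log2(value + 1). Genes with a mean of at least 10 were tested in R 4.3.3 with limma 3.58.1, with group as the single term and an eBayes intensity trend (3.96 prior beside 2 residual degrees of freedom), two-sided, with Benjamini-Hochberg adjustment over 15058 genes and a threshold of 0.05. This scale understates changes of low genes. Alternatives numbered 14. Members and lists were chosen with earlier results of these data known. Every member is named; those of further lists come from the 6 with the smallest p in each, and a few markers and genes that did not pass were added after their values were seen. GENCODE M21 (GRCm38) gave positions, exon lengths and overlaps, and RefSeq the promoters. Transcript windows of 50 bases were compared on both strands.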

Additional observations from a re-analysis of the deposited data

How the results depend on the processing

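Of the 12 called members, the log2 fold changes kept their sign in every alternative that could be fitted. Other pseudocounts, a minimum mean of 50, robust eBayes, TMM rescaling and quantile normalization gave 11 to 14 members higher and 1 lower. At the minimum mean of 50, 32 members were tested: Tlr1, Tlr9 and Tnip3 dropped out, and Tlr4, Irak4 and Tnfaip3 were called higher in addition. Without a filter on low values, and likewise without the intensity trend, limma called 0 members, 0 further pathway genes and 0 genes in all, in either direction (5472 and 4274 genes at an unadjusted p under 0.05). With the libraries at the same total, 17 members were higher and 0 lower. Further pathway genes called lower numbered 2 with robust eBayes, TMM rescaling, quantile normalization or the replicate block, against 1. The KO and WT libraries share only a replicate number: the differences between replicates correlated across genes at 0.12, and the replicate block called 19 members higher and 1 lower.

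With 1 library left out, the calls over all genes ran from 0 to 718 higher and 0 to 197 lower, those of members from 0 to 4 higher and 0 lower, and those of further pathway genes from 0 to 12 higher and 0 lower. Such fits keep 1 residual degree of freedom and assume that the lone sample of a group varies like the other group. Signs turned only for members that did not pass. Nfkbib was at -0.0072 after quantile normalization, and at the same total Ikbkb was at 0.037 and Rela at 0.073. With 1 library left out, Ikbkb ran from -0.14 to 0.048, Ikbkg from -0.018 to 0.56, Nfkb1 from -0.089 to 0.23, Rela from -0.11 to 0.088, Nfkbia from -0.12 to 0.38 and Nfkbiz from -0.035 to 1.26. Apart from the values given, the cause was not tested. With 2 libraries a group, genes under about 10 counts, such as Tnip3 in the WT libraries, are limited by counting error.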
